A study of Homo sapiens with 6 samples.

Results

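Transcripts of 10 leukocyte chemoattractant receptors were followed in a leukaemia line exposed to the compound DB2115: CXCR4, CXCR2, CCR1, CCR2, CCR7, FPR1, FPR2, C5AR1, C3AR1 and PTAFR. They were chosen by name, as 10 of the 58381 gene identifiers in the count table. The treated cells had spent 20 h with 5 µM DB2115, and the cells they were compared with had spent 20 h with vehicle, 0.001% DMSO. Both were MOLM-13, a human acute myeloid leukaemia line that carries the fusion gene MLL-AF9 and an internal tandem duplication of FLT3, grown in RPMI with 10% serum. The series title names PU.1, a transcription factor of myeloid cells, as the subject of the study, and the compound appears in the sample titles only under its code name. The labels list 3 libraries a group, but the column V of each group equals A plus B to within 2 counts for every receptor, so n = 2 libraries per group, called A and B. No label says whether A and B were grown as separate cultures. The p-values therefore rest on differences among 4 libraries of a single line, possibly technical ones.

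Chemoattractant receptors are seven-helix receptors that sit in the plasma membrane and steer leukocytes up gradients of chemokines, complement fragments, formylated bacterial peptides or lipid mediators. Most couple to G proteins of the Gi class, whose beta-gamma subunits activate phospholipase C-beta and PI3-kinase gamma, and through exchange factors the small GTPases of the actin cytoskeleton. G-protein-coupled receptor kinases, arrestins and RGS proteins end the signal. In myeloid cells CXCR4 is known for holding progenitors in the bone marrow, while receptors for complement and formyl peptides are typical of mature monocytes and neutrophils.

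With DB2115 the receptors for C3a, formyl peptides, platelet-activating factor and CCL2 rose, and CXCR4 fell. Of the 10 receptors, 6 rose (C3AR1, FPR1, FPR2, PTAFR, CCR2 and C5AR1), 1 fell (CXCR4), and 3 were not called (CXCR2, CCR1 and CCR7). A gene was called where its p from the quasi-likelihood test of edgeR, adjusted by Benjamini-Hochberg over 17219 genes, was below 0.05. In the same comparison 64.1% of all genes tested were called, 32.7% higher and 31.3% lower, so 7 of 10 called is near the background share. All 7 called receptors differed at least 2-fold, 6 higher and 1 lower. Over all genes tested 27% did so, 17.5% higher and 9.53% lower. The libraries of the groups did not overlap for 9 receptors, 7 higher and 2 lower with DB2115, against 81.3% of all genes, 42% higher and 39.4% lower. The median log2 fold change of the 10 was 1.49, against 0.03 over all genes. Setting FPR1 and FPR2, silent in vehicle, at their bounds could not move this median, because their bounds also lie above it. Of the 10, 4 (C3AR1, FPR1, FPR2 and C5AR1) passed the filter on low counts through the DB2115 libraries alone and could be tested because they were high there. Among the 6 that the vehicle libraries alone would have carried through, 2 rose and 1 fell, so 3 of 6 were called, against 64.7% of all genes of that kind. Their log2 fold changes were -1.53 (CXCR4), -0.32 (CXCR2), 0.04 (CCR1), 0.94 (CCR7), 1.47 (CCR2) and 2.89 (PTAFR). The median over all genes of that kind was -0.08.

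**Figure D1:**
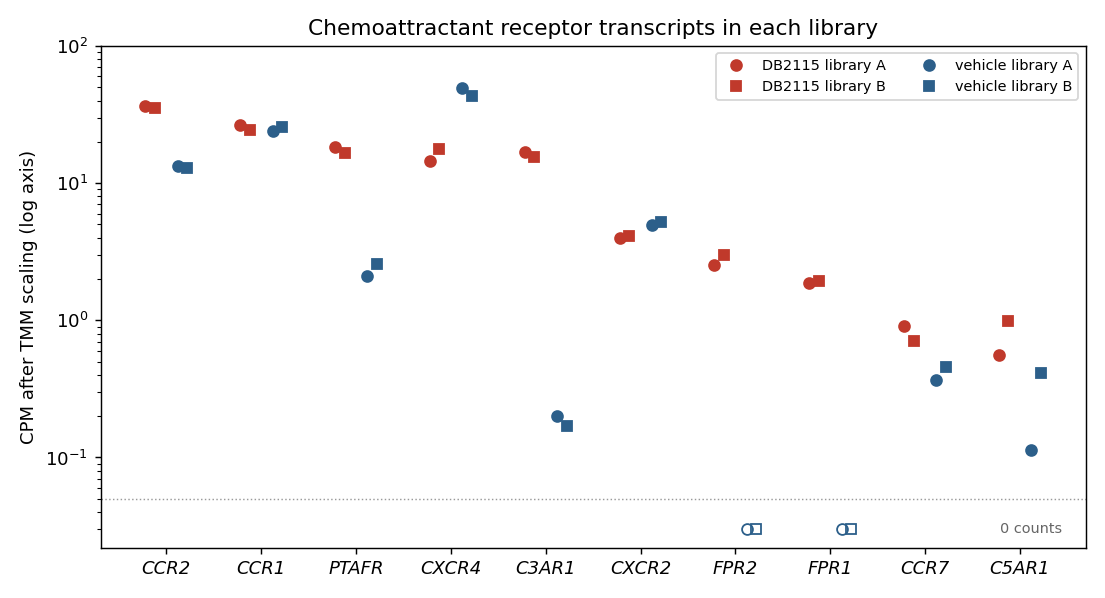
Level of each receptor transcript in each library, in CPM after TMM scaling on a log axis; red symbols are DB2115 libraries, blue symbols vehicle libraries, circles library A and squares library B, and open symbols under the dotted line stand for 0 counts. C3AR1, at 16.8 and 15.4 CPM with DB2115 against 0.199 and 0.17 CPM in vehicle, and the silent FPR1 and FPR2 in vehicle show the widest gaps, while the CCR1 symbols of the groups overlap.

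Total counts were 40067286 and 39647758 in the DB2115 libraries and 36547900 and 42446253 in the vehicle libraries. Levels are given as CPM, counts relative to the size of a library after TMM scaling, on which 3 counts in a library correspond to between 0.0725 and 0.0854. All 10 markers of a myeloid leukaemia line, SPI1, CD33 and FLT3 among them, were detected, in sums of 1390 and 1320 CPM with DB2115 and 1330 and 1300 CPM in vehicle. Behind these similar sums 6 of the 10 were called higher and 3 lower. FLT3 fell to 138 and 140 CPM with DB2115, against 441 and 422 CPM in vehicle, and the granule enzyme gene MPO rose to 299 and 282 CPM, against 51.2 and 54.1 CPM. LYZ, by contrast with MPO, fell to 91.7 and 84.7 CPM with DB2115, against 215 and 204 CPM in vehicle. Of the other cell types, erythroid and epithelial markers stayed at or under 0.569 CPM in sum, with HBG1 and KRT5 at 0 in every library. Mature neutrophil markers summed to 0.415 and 0.773 CPM with DB2115 and 0.0569 and 0.0242 CPM in vehicle, with CEACAM8 at 0. T cell markers summed to 1.37 and 0.387 CPM against 0.0854 and 0.0484 CPM, with CD2 at 0, and NK cell markers to 2.49 and 2.37 CPM against 0.0285 and 0 CPM, with NCR1 and KLRF1 at 0. Monocyte and macrophage markers summed to 26.2 and 32.3 CPM against 2.25 and 2.47 CPM, of which MRC1 was at 0 and 2 of 5, CD14 and VCAN, rose. B cell markers summed to 27.1 and 29.7 CPM against 50.2 and 52 CPM, with 3 of 5 higher and PAX5 lower. Fibroblast collagens and DCN summed to 38.8 and 52.1 CPM against 12.7 and 5.52 CPM, of which COL1A1 rose. The monocyte, neutrophil, T cell, NK cell and fibroblast sums were thus higher with DB2115 and the B cell and epithelial sums lower, and their part in the receptor results was not tested. In bulk RNA, fewer cells of a type and less RNA per cell cannot be told apart.

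PU.1 and other ETS factors bind DNA around a GGAA core, so the 250 bases upstream of each RefSeq start site (GRCh38.p14) were searched on both strands for the motif GAGGAA and, in a separate search, for the motif GGAAGT. The A-tract motif AAAAA was searched likewise, and matches that overlap were each counted. Windows were found for 9 of the 10 receptors, 13 windows in all, and not for CCR7. GAGGAA lay in 4 of the 13 windows, against 23.6% of 35116 windows of the same length, and GGAAGT in 4 of 13, against 19.5%. AAAAA lay in 10 of 13, against 36.6% of all windows. The stretches below show, for each window that held GAGGAA or GGAAGT, the match nearest to the start site, in capitals, as read on the strand of the gene.
FPR1, chr19:51751956-51751985, minus strand: gaagaagctcagACTTCCtatttcctgcta
C5AR1, chr19:47309793-47309822, plus strand: aaagacggtcatTTCCTCcctgcatcttcc
PTAFR, chr1:28176716-28176745, minus strand: gggccacagcatTTCCTCccaggggtgact
CXCR4, chr2:136118245-136118274, minus strand: cctgcgccctccTTCCTCgcgtctgcccct
CXCR4, chr2:136116242-136116271, minus strand: tgtattttttttTTCCTCctaaggaaggtt
CCR1, chr3:46208360-46208389, minus strand: aggaagctgagtACTTCCtacttggtcagg
CXCR2, chr2:218125993-218126022, plus strand: cttgttaaaaaaGGAAGTgcaggttcaaaa

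Matches stood upstream of receptors that rose, fell and were not called alike. The PTAFR, CCR1 and CXCR2 matches shown lie within exons of the same gene in GENCODE release 29, and the FPR1, C5AR1 and CXCR4 matches outside them. The CXCR2 match, 23 bases upstream of the start, directly follows an A-tract. A CXCR4 match, 24 bases upstream of the most downstream of its start sites, begins at the end of a run of T. None of the windows of C3AR1, CCR2 or FPR2 held GAGGAA or GGAAGT. The CCR2 and FPR2 windows lie wholly within exons of that release, so no sequence outside annotated exons was searched for CCR2 or FPR2. For C3AR1, the receptor with the largest rise among those with counts in vehicle, the part of the window outside the exons of GENCODE release 29 is shown, with no capitals because it held no match.
C3AR1, chr12:8066472-8066609, minus strand: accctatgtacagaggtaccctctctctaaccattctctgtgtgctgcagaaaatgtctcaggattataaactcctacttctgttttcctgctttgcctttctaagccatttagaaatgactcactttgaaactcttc
These matches describe letters in a window; no binding was measured, and which start site the cells used was not analysed here.

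Among the receptors for complement fragments, C3AR1, the C3a receptor on chromosome 12 (8058302 to 8066471, minus strand), had 686 and 639 counts in DB2115 libraries A and B and 7 in each vehicle library. That is 16.8 and 15.4 CPM with DB2115 against 0.199 and 0.17 CPM in vehicle, so the groups lay far apart and did not overlap. The log2 fold change was 6.43 (edgeR adjusted p = 5.65e-11), and the ratio of 1325 to 14 counts was 87.9, with an exact 95% counting interval of 52.2 to 161. Such intervals cover counting error only. C5AR1, the C5a receptor on chromosome 19 (47290023 to 47322066, plus strand), had 23 and 41 counts with DB2115 against 4 and 17 counts in vehicle. Library B was the higher in each group, and the lower DB2115 value, 0.562 CPM, stood only slightly above the higher vehicle value, 0.412 CPM. Its rise (log2 fold change 1.51, SE 0.56, edgeR adjusted p = 0.0323) was lost with DESeq2 (adjusted p = 0.0733), without DB2115 library B (log2 fold change 1.05, adjusted p = 0.243) and without vehicle library A (0.90, adjusted p = 0.209). Over its alternatives the fold change ran between 0.90 and 2.71, the adjusted p between 0.00557 and 0.243. The higher end came without vehicle library B.

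The formyl peptide receptors FPR1 and FPR2, which detect N-formylated peptides of bacteria and mitochondria, had no count in either vehicle library. FPR1 had 76 and 80 counts with DB2115, or 1.86 and 1.93 CPM. Against a floor of 3 counts over the vehicle group this is at least 48.3-fold higher (edgeR adjusted p = 1.21e-06). FPR2, which also binds serum amyloid A and annexin A1, had 104 and 123 counts with DB2115, or 2.54 and 2.97 CPM. On the same floor this was 70.2-fold higher (edgeR adjusted p = 2.87e-07), with a counting interval from 56.7 upward. In absolute terms both stayed low, under 3 CPM, and the values of the 2 DB2115 libraries lay close together. The genes lie on chromosome 19 on opposite strands (51745172 to 51804110 and 51752026 to 51770526), with overlapping spans but no shared exon bases. Their neighbour FPR3, within the same 81 kb, had 0 counts in each DB2115 library and 0 and 2 in vehicle and was not tested.

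PTAFR encodes the receptor for platelet-activating factor, a phospholipid mediator, and couples to Gq as well as Gi. It had 744 and 686 counts with DB2115 against 74 and 106 in vehicle, or 18.2 and 16.6 CPM against 2.11 and 2.57 CPM. The groups did not overlap, and the gene rose 7.44-fold (log2 fold change 2.89, SE 0.14, edgeR adjusted p = 1.6e-09). PTAFR lies on chromosome 1 (28147166 to 28193936, minus strand).

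The chemokine receptors moved in different directions. CXCR4, the receptor for CXCL12 on chromosome 2 (136114349 to 136118165, minus strand), had 596 and 727 counts with DB2115 against 1741 and 1786 in vehicle. At 14.6 and 17.6 CPM with DB2115 against 49.6 and 43.3 CPM in vehicle it was 2.89-fold lower (log2 fold change -1.53, SE 0.10, edgeR adjusted p = 3.15e-08), a fall several times the spread within either group. CCR2, the receptor for CCL2 by which monocytes leave the bone marrow, had 1502 and 1462 counts with DB2115 against 468 and 527 in vehicle. It lies on chromosome 3 (46353734 to 46360928, plus strand) and rose to 36.7 and 35.3 CPM with DB2115, against 13.3 and 12.8 CPM in vehicle. The rise was 2.76-fold (log2 fold change 1.47, SE 0.08, edgeR adjusted p = 7.43e-09).

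CCR1, a receptor for CCL3 and CCL5, had 26.7 and 24.3 CPM with DB2115 against 23.9 and 25.8 CPM in vehicle. The groups overlapped, and the log2 fold change was 0.04 (SE 0.09, edgeR adjusted p = 0.72). At 1092 and 1007 counts with DB2115 against 839 and 1064 in vehicle, the counting ratio was 1.02 with a 95% interval of 0.962 to 1.09. CXCR2, the neutrophil receptor for CXCL8 and related chemokines, had 3.98 and 4.15 CPM with DB2115 against 4.95 and 5.18 CPM in vehicle. Its groups did not overlap, but the difference was not called (log2 fold change -0.32, SE 0.16, edgeR adjusted p = 0.102). Of the 50-base words in its transcripts, 6.41% also occur in other genes, among them CXCR1 and CXCR2P1, so its counts are less certain than those of the other receptors, where the share was at most 1.36%. CCR7, which guides dendritic cells and lymphocytes to lymph nodes, had 37 and 29 counts with DB2115 against 13 and 19 in vehicle. At 0.904 and 0.701 CPM against 0.37 and 0.46 CPM its groups did not overlap, yet the difference was not called (log2 fold change 0.94, SE 0.42, edgeR adjusted p = 0.0698). CCR7 passed the threshold with upper-quartile factors (adjusted p = 0.0484) and with total counts alone (adjusted p = 0.0494).

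**Figure D2:**
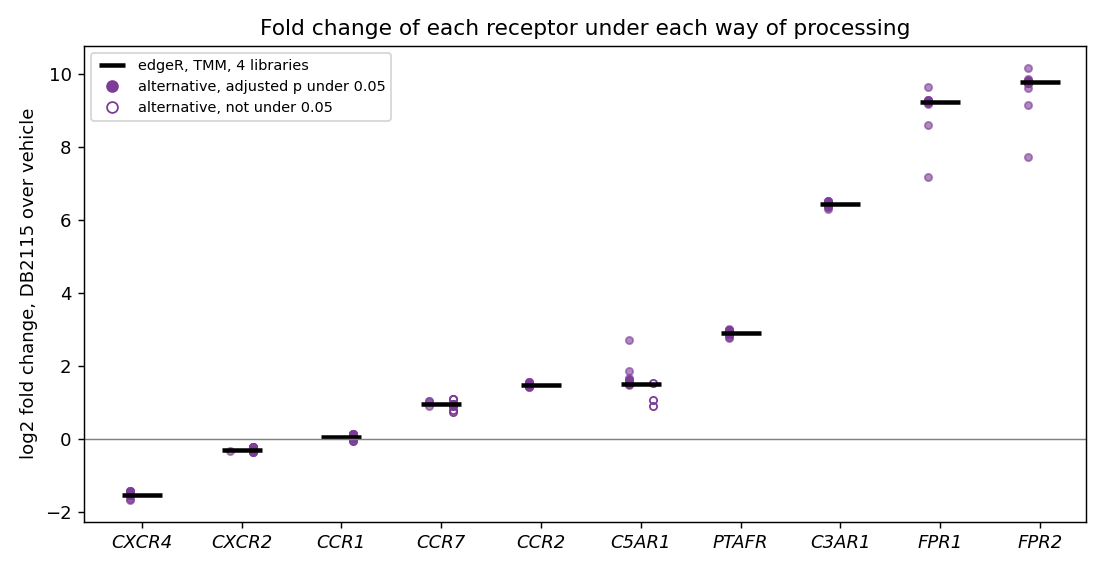
Log2 fold change, DB2115 over vehicle, of each receptor in the main fit (black bar) and in each alternative way of processing (purple, filled where the adjusted p was under 0.05, open where it was not). The fitted values of FPR1 and FPR2, which had no vehicle counts, depend on the prior count of the tool and are no measure of size; CXCR4 stayed between -1.68 and -1.42, and CCR1 lay on either side of 0.

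Together the 10 receptors took 123 and 120 CPM in the DB2115 libraries and 94.5 and 90.6 CPM in the vehicle libraries. Their make-up differed more than their sum. CXCR4 held 11.9% (95% Wilson interval 11.0 to 12.8) and 14.6% (13.7 to 15.7) of the receptor counts with DB2115, against 52.4% (50.7 to 54.1) and 47.8% (46.2 to 49.4) in vehicle. CCR2 held 29.9% (28.7 to 31.2) and 29.4% (28.2 to 30.7) with DB2115, against 14.1% in each vehicle library (13.0 to 15.3 and 13.0 to 15.2). C3AR1 held 13.7% (12.7 to 14.6) and 12.9% (12 to 13.8), against 0.211% (0.102 to 0.435) and 0.187% (0.0907 to 0.386) in vehicle. CXCR4 was thus the source of about as many receptor counts in vehicle as the other 9 combined, whereas with DB2115 the largest share was that of CCR2.

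**Figure D3:**
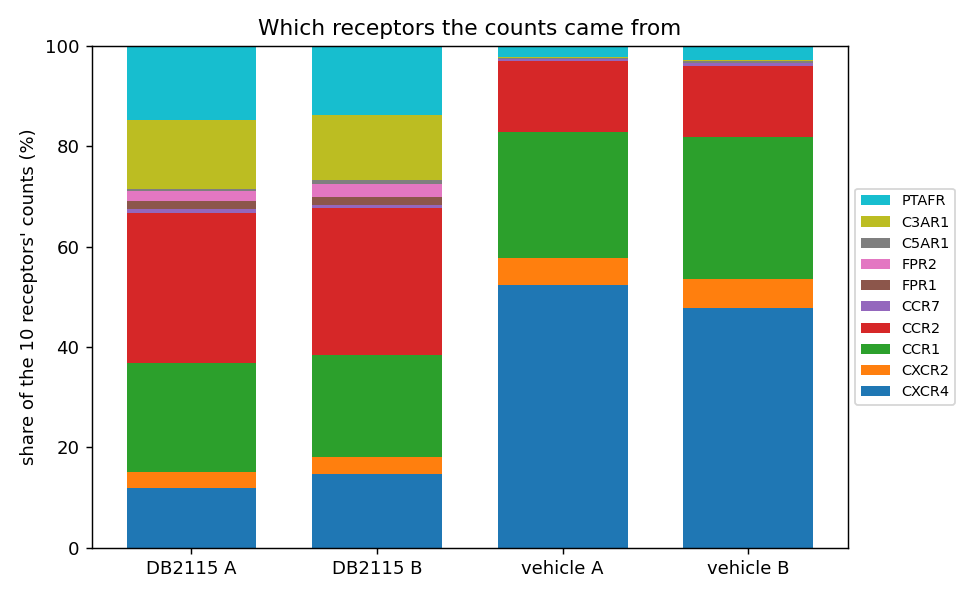
Share of the summed counts of the 10 receptors that came from each, in percent, for the DB2115 libraries and the vehicle libraries. CXCR4 took 11.9% and 14.6% with DB2115 and 52.4% and 47.8% in vehicle, and the C3AR1 and PTAFR segments are broad in the DB2115 bars and thin in the vehicle bars.

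Levels were compared between receptors per kilobase of annotated exon (CPM per kb, mean ± SD, n = 2). With DB2115 CCR2 (9.65 ± 0.263) and CCR1 (9.34 ± 0.611) came first, with overlapping libraries, followed by C3AR1 (7.51 ± 0.438) and CXCR4 (7.22 ± 0.953), whose libraries also overlapped. PTAFR (3.69 ± 0.242) and CXCR2 (1.26 ± 0.0375) stood apart from their neighbours. FPR2 (0.745 ± 0.0821) and FPR1 (0.731 ± 0.0205) did not differ beyond their spread, nor did CCR7 (0.32 ± 0.0574) and C5AR1 (0.263 ± 0.103). In vehicle the order was led by CXCR4 (20.9 ± 2.01), ahead of CCR1 (9.09 ± 0.488), CCR2 (3.49 ± 0.106), CXCR2 (1.57 ± 0.0501) and PTAFR (0.497 ± 0.0692), each separate from the next. CCR7 (0.166 ± 0.0254) followed, C5AR1 (0.089 ± 0.0714) and C3AR1 (0.086 ± 0.00981) overlapped, and FPR1 and FPR2 were at 0.

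**Figure D4:**
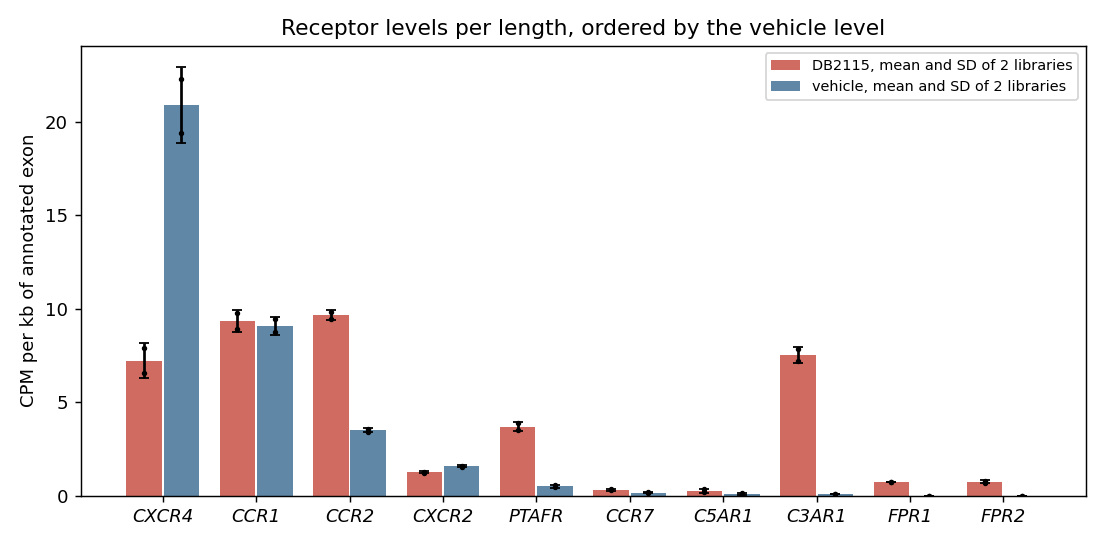
Receptor levels in CPM per kb of annotated exon, as the mean and SD of 2 libraries (bars, DB2115 left in red, vehicle right in blue) with each library as a black point, ordered by the vehicle level. CXCR4 leads in vehicle at 20.9 CPM per kb; with DB2115 CCR2, CCR1, C3AR1 and CXCR4 stand between 7.22 and 9.65.

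Further chemoattractant receptors were tested where their counts allowed. Of 29 further receptors, 15 were too low to test, of which 6 (CCR4, CCR8, CXCR5, ACKR1, CMKLR2 and S1PR1) had no count in any library. Of the 14 tested, 12 rose, 1 fell and 1 was not called, with a median log2 fold change of 2.78 against 0.03 for all genes, but 7 of the 14 passed the filter only through DB2115. Of the 7 that the vehicle libraries alone would have carried through, 5 rose and 1 fell. Over all genes tested 64.1% were called, 32.7% higher and 31.3% lower, the shares against which this count and those of the lists that follow are read. CXCR3, the receptor for interferon-induced chemokines, had 525 and 484 counts with DB2115 against 4 and 9 in vehicle. That is 12.8 and 11.7 CPM against 0.114 and 0.218 CPM (log2 fold change 6.15, edgeR adjusted p = 3.12e-10), and CXCR3 passed the filter only through DB2115. CX3CR1, the fractalkine receptor of patrolling monocytes, had 48.3 and 42.6 CPM with DB2115 against 13.4 and 15 CPM in vehicle (log2 fold change 1.67, edgeR adjusted p = 5.62e-09). CCRL2, an atypical receptor that binds chemerin, had 5.38 and 4.25 CPM against 0.256 and 0.0969 CPM (log2 fold change 4.79, but 5.58 without vehicle library A and 4.19 without vehicle library B), and passed the filter only through DB2115. GPR183, which senses oxysterols, was the receptor that fell, at 1.74 and 1.33 CPM with DB2115 against 4.38 and 4.04 CPM in vehicle (log2 fold change -1.46, edgeR adjusted p = 8.08e-05). ACKR3, the other receptor of CXCL12, had 6 and 9 counts with DB2115 against 3 and 0 in vehicle, too few to test. CXCR1, the close relative of CXCR2, had 1 and 2 counts with DB2115 and none in vehicle.

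Neighbouring receptor genes did not all show the same call. On the short arm of chromosome 3, several receptor genes lie within 526 kb (45886504 to 46412997). Among them CCR2, CCR3 and CCRL2 rose, CCR1 was not called, and CCR9 and XCR1, with at most 5 counts in a library, were not tested. CCR3 overlaps the span of CCR1 on the opposite strand without sharing exon bases, and had 31 and 24 counts with DB2115 against 5 in each vehicle library (log2 fold change 2.32), passing the filter only through DB2115. On chromosome 19, C5AR2, a C5a receptor that does not couple to G proteins, lies within 57 kb of C5AR1. C5AR2 had 9.09 and 8.62 CPM with DB2115 against 0.626 and 1.09 CPM in vehicle (log2 fold change 3.34, edgeR adjusted p = 3.12e-08), and its rise and that of C5AR1 were not tested against each other.

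Ligands of the 10 receptors and enzymes of platelet-activating factor were called in both directions, as were genes at large. Of 34 genes listed, 15 were tested, 8 rose, 5 fell and 2 were not called, with a median log2 fold change of 0.20; 86.7% were thus called, against 64.1% of all genes. C3, the precursor of C3a, had 269 and 258 CPM with DB2115 against 3.44 and 4.43 CPM in vehicle (log2 fold change 6.05, SE 0.10, edgeR adjusted p = 5.23e-13). Transcripts of C3 and of its receptor C3AR1 were thus both higher in the same libraries. C5, the precursor of C5a, rose to 5.4 and 6.67 CPM with DB2115, against 2.14 and 1.79 CPM in vehicle (log2 fold change 1.62). CXCL8, the main ligand of CXCR2, had 5.91 and 7.46 CPM against 1.82 and 2.08 CPM (log2 fold change 1.77, edgeR adjusted p = 3.67e-06), and CXCL2 also rose (1.42), though it passed the filter only through DB2115.

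CCL5, a ligand of CCR1, fell to 10.9 and 11.5 CPM with DB2115, against 25.4 and 20.8 CPM in vehicle (log2 fold change -1.04, edgeR adjusted p = 2.89e-06). MIF, a cytokine that also binds CXCR4 and CXCR2, had a log2 fold change of -0.56, but most of its exon bases overlap an antisense gene, and without known strandedness its counts are uncertain. CXCL12 itself had 1 and 8 counts with DB2115 against 4 and 3 in vehicle, and the CCR7 ligands CCL19 and CCL21 had at most 3 counts in a library. CCL2, the ligand of CCR2, had 18 and 19 counts with DB2115 against 0 and 1 in vehicle and passed the filter only through DB2115 (ratio 34.3, exact 95% counting interval 5.79 to 1390, edgeR adjusted p = 0.000448). Annexin A1, a ligand of FPR2 encoded by ANXA1, was not called (log2 fold change -0.25, edgeR adjusted p = 0.0967).

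Around PTAFR, LPCAT2, the inflammatory enzyme that makes platelet-activating factor, rose to 104 and 106 CPM with DB2115, against 60.6 and 55.9 CPM in vehicle (log2 fold change 0.85, edgeR adjusted p = 1.43e-07). PAFAH2, which degrades oxidised phospholipids of this kind, rose as well (1.21). LPCAT1, a constitutive acyltransferase, fell (-0.36). PLA2G4A, the cytosolic phospholipase A2 that frees arachidonic acid and the lipid precursor, had 9.09 and 10.2 CPM with DB2115 against 48.1 and 42.8 CPM in vehicle (log2 fold change -2.23, edgeR adjusted p = 6.09e-10).

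Genes that carry the signal from the receptors to the cytoskeleton moved in both directions. Of 40 listed, 38 were tested, 20 rose, 8 fell and 10 were not called, with a median log2 fold change of 0.39. The share called, 73.7%, is near the 64.1% of all genes. GNAI2, the main Gi alpha subunit of leukocytes, had 738 and 711 CPM with DB2115 against 358 and 343 CPM in vehicle (log2 fold change 1.05). PLCB2, the phospholipase C of this pathway, had 245 and 229 CPM against 67.3 and 66.5 CPM (log2 fold change 1.82, edgeR adjusted p = 9e-11). PREX1, a Rac exchange factor activated by beta-gamma subunits, rose with a log2 fold change of 1.5, RASGRP4, a Ras exchange factor, with 3.43, and FGR, a Src-family kinase, with 5.11. PIK3R5, a regulatory subunit of PI3-kinase gamma, rose (1.74), whereas the catalytic subunit PIK3CG fell (-0.40). PIK3R6, in the same list, rose too, at 41 and 58 counts with DB2115 against 0 and 1 in vehicle. It passed the filter only through DB2115.

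GNA15, the promiscuous G alpha subunit that links many of these receptors to phospholipase C, had 116 and 137 CPM with DB2115 against 267 and 248 CPM in vehicle (log2 fold change -1.02, edgeR adjusted p = 1.3e-07). GNB4 (-0.77), GNG10 (-1.29) and the Rac exchange factor VAV3 (-0.71) fell too. GNG10 shares 73.1% of its exon bases with a read-through gene and GNB4 27.6% with an antisense gene, so their counts are uncertain.

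**Figure D5:**
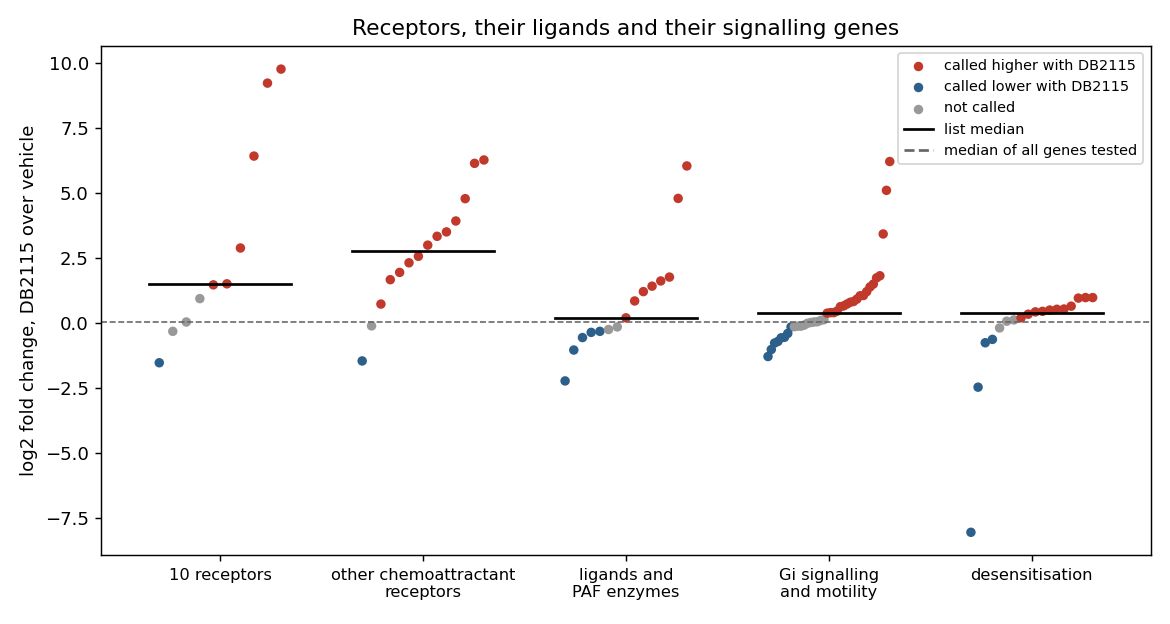
Log2 fold change, DB2115 over vehicle, of each tested gene in the 10 receptors and in 4 lists around them (red, called higher with DB2115; blue, called lower; grey, not called), with the list median as a black bar and the median of all genes tested as a dashed line. The receptors have medians of 1.49 and 2.78, the other lists between 0.20 and 0.39. These medians are not directly comparable, because 4 of the 10 receptors and 7 of the 14 further ones passed the filter only through DB2115. In the lists of ligands, signalling and desensitisation genes 2 of 15, 1 of 38 and 0 of 18 did so.

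Genes that switch the receptors off were also called in both directions. Of 19 listed, 18 were tested, 11 rose, 4 fell and 3 were not called, with a median log2 fold change of 0.38. The share called was 83.3%, against 64.1% of all genes. ARRB2, a beta-arrestin, had 290 and 283 CPM with DB2115 against 153 and 142 CPM in vehicle (log2 fold change 0.96, edgeR adjusted p = 2.26e-08). ARRB1 (0.54), the receptor kinase GRK6 (0.53), which acts on CXCR4, and RGS10 (0.65) rose. GRK2, another receptor kinase, fell to 586 and 540 CPM with DB2115, against 883 and 863 CPM in vehicle (log2 fold change -0.63). RGS1, an inhibitor of chemokine receptor signalling, had 17 and 13 counts with DB2115 against 76 and 79 in vehicle (log2 fold change -2.47), and USP14 fell (-0.76). RGS18, a regulator of Gi and Gq signalling in blood cells, had 0 and 3 counts with DB2115 against 351 and 456 in vehicle, a ratio of 0.00345 with an exact 95% counting interval of 0.00071 to 0.0101 (edgeR adjusted p = 1.04e-09). That ratio rests on library B: the fitted log2 fold change was -7.14 without DB2115 library A and -11.69 without DB2115 library B, where no DB2115 count remains and the value depends on the prior count.

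As a description of level and change together, each receptor was set beside the gene of these lists with the closest log2(CPM + 0.5) values over the 4 libraries, among 94 others. CCR2 lay closest to GNG2, a G gamma subunit, at a Euclidean distance of 0.138, and CCR1 to the ubiquitin ligase gene WWP1, at 0.203. FPR2 lay closest to the chemerin receptor gene CMKLR1 (0.377), CCR7 to CXCL2 (0.503), C5AR1 to PTGDR2 (0.521), FPR1 to S1PR4 (0.533) and C3AR1 to CXCR3 (0.578). CXCR4 (to PLA2G4A, 0.994), CXCR2 (to GNG10, 1.11) and PTAFR (to CCR10, 1.27) had their closest genes farther away. The added 0.5 draws very low values together. Distances of receptors with few counts, such as FPR1, FPR2, C5AR1 and CCR7, are therefore not comparable with those of CXCR4, CXCR2 and PTAFR.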

How the data were processed

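Per the submitters' processing notes, FastQC, STAR, DESeq2 and build hg38 were used; the notes carry no versions, and how reads were assigned to genes, with or without strand, was not stated. The deposited table holds raw read counts per gene in 6 columns, not normalised by the authors. In each group the V column was close to the sum of A and B, with a total ratio of 1.002, and was left out. The sum was exact for 86.3% of genes with counts in DB2115 and 85.6% in vehicle, and within 2 counts for every receptor. Of 58381 identifiers, 58261 received a symbol; coordinates and exon lengths came from GENCODE 29, promoters from RefSeq; protein sequences were not used here.

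Counts were filtered with filterByExpr (minimum count 10, minimum total 15), scaled by TMM and fitted with edgeR 4.0.16 in R 4.3.3 (glmQLFit, glmQLFTest, treatment only, 17219 genes), after a test on simulated data. Standard errors are the absolute log2 fold change divided by the square root of F. Alternatives used other scaling factors and filters, DESeq2 1.42.0, limma-voom (limma 3.58.1), left-out libraries, all 6 columns, a block on the column letters, and removal of mitochondrial genes. The receptors and lists were chosen with earlier results of these data known. Named list genes were up to 4 rises and 4 falls with the smallest adjusted p; others were chosen after their values were seen. Intervals cover counting error only. Results for some genes are not reported here.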

Additional observations from a re-analysis of the deposited data

How the results depend on the processing

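CXCR4, CCR2, PTAFR, C3AR1, FPR1 and FPR2 kept their direction and call in every alternative that tested them (15 each, 14 for C3AR1, FPR1 and FPR2, which 1 CPM in 3 libraries removed). The receptors called higher then numbered 2 in place of 6, and the further receptors called higher 4 in place of 12. That filter leaves out genes under 1 CPM in a group, as C3AR1, FPR1 and FPR2 were in vehicle. C5AR1, at 0.562 and 0.99 CPM with DB2115 as well, was left out by 1 CPM in 2 libraries too. The median of the 5 receptors tested with 1 CPM in 3 libraries was 0.12. It was 2.21 for the 8 with 1 CPM in 2 libraries and 1.49 for all 10. With 1 CPM in 3 libraries the desensitisation genes called lower numbered 2. With all 6 columns, which count the summed column as a library, 2 receptors (CXCR2, log2 fold change -0.34, adjusted p = 0.00035, joined CXCR4) and 2 further receptors were called lower. CCR7 was called there too (0.91, adjusted p = 0.000726). The uncalled CCR1 turned to -0.05 (adjusted p = 0.715) without DB2115 library A and to -0.03 (0.873) without vehicle library A, and ran up to 0.09 with other libraries left out. With each library left out in turn, 5 to 6 receptors were called higher and 1 lower, and 4465 to 5267 genes higher. A replicate block on the letters A and B, whose deviations correlated at 0.0451 across 13403 genes, left 6 receptors higher and 1 lower; the columns carry no replicate numbers, so the letters are not known to pair the samples. All-gene medians ran between 0.00 and 0.12. For FPR1, FPR2, CCR7 and C5AR1, counts per library from 0 to 123 limit precision.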
